A study of Mus musculus with 30 samples.

Results

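The genes described here are the 42 collagen chain genes on the array, chosen as every gene whose platform symbol is Col, a type number, the letter a and a chain number. They are 42 of the 18193 genes with a probe set of a single symbol, and where a gene had several probe sets the brightest one on average over the 30 arrays was taken. By structure, 11 are fibrillar collagen genes, 8 are basement membrane collagen genes (the type IV chains and the multiplexins Col15a1 and Col18a1) and 23 belong to other types. The study used mouse embryonic fibroblasts from MyoD-/-/Myf5-/- animals, a background that all groups share, and total RNA was measured on Affymetrix expression arrays. The retroviruses carried MyoD fused to the hormone-binding domain of the estrogen receptor. ER-MyoD RRR cells carried the fusion in which lysines 99, 102 and 104 were replaced by residues that acetylation cannot modify, ER-MyoD wt cells carried the unaltered fusion, and empty retrovirus cells carried a virus without MyoD. The cells of the 6, 12 and 24 h arrays were kept in medium that promotes muscle differentiation with beta-estradiol. That hormone activates such fusion proteins. Arrays of RRR cells were at 6, 12 and 24 h, those of wt cells at 0, 6, 12 and 24 h and those of empty retrovirus cells at 6, 12 and 24 h, with 3 arrays in each of the 10 groups. The fusions were expressed from a retrovirus in cultured fibroblasts, not from the Myod1 locus in muscle. Whether the 3 arrays of a group came from separate cultures is not in the labels, so the p-values cover the spread among arrays and that spread may be technical.

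Collagens are secreted proteins built from chains that wind around each other in a rope-like helix. Fibrillar collagens such as types I, III and V assemble outside the cell into the cross-linked fibrils of connective tissue. Type IV chains instead form the sheet-like network of basement membranes, the layer that coats every muscle fibre, and type VI makes beaded filaments beside that layer. The remaining types bind to fibril surfaces, span the cell membrane or form short-chain lattices, and several are known mainly from cartilage or skin. In muscle tissue, fibroblasts between the fibres are the chief source of fibrillar collagen.

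Levels are the signals as deposited, on a linear scale, and the signal of a probe set cannot be set against that of another. Differences are on the log2(signal + 16) scale after quantile normalisation, as fitted by limma across all 18193 genes, with ± for the standard error and n = 3 arrays a group. A gene passed where its p, adjusted by Benjamini-Hochberg over all genes within a comparison, was under 0.05. Replicate arrays correlated at r = 0.946 to 0.973, and for 27 of the 30 arrays the closest array was a replicate of the same group. The median correlation with the own group was lowest for RRR 6 h replicate 2 (0.949), empty retrovirus 12 h replicate 1 (0.95) and wt 24 h replicate 3 (0.951), so the counts below were also made without these 3 arrays. Myod1 read 305.5 to 580.4 in RRR cells and 450.7 to 745.5 in wt cells at 24 h, against 213.4 to 256.3 in empty retrovirus cells. Whether its probe set lies in the deleted part of the gene was not tested, so these signals check the labels only in part. Of the 12 fibroblast markers, 11 reached a signal of 100 in at least 3 arrays, and none of the 7 endothelial markers did. That level was also reached by 4 of 6 smooth muscle, 3 of 9 chondrocyte and 3 of 8 keratinocyte and other epithelial markers. So did 2 of 5 measured osteoblast, 1 of 3 measured Schwann and glial and 11 of 12 skeletal muscle markers. Summed skeletal muscle marker signal at 24 h was 33920 to 38000 in RRR cells and 50580 to 59650 in wt cells, against 205.1 to 289.3 in empty retrovirus cells.

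In the comparison of the constructs, collagen genes of different classes differed in direction and time. The basement membrane chains Col4a1 and Col4a2 were higher in both ER-MyoD lines than in empty retrovirus cells at every time. Fibrillar genes such as Col1a1, Col5a1 and Col11a1 rose between 6 and 24 h in empty retrovirus cells, and at 24 h they were lower in wt cells than in empty retrovirus cells. At 24 h, 10 collagen genes were higher in RRR cells than in wt cells and none was lower. Of the 42 genes, 21 passed in at least 1 of the 16 comparisons and 21 passed in none. The share of all genes that passed in at least 1 comparison was not counted, so these 2 numbers have no background. Single comparisons called 1.75% to 30.7% of all genes.

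At 24 h, 10 collagen genes were higher in RRR cells than in wt cells (3.34% of all genes were) and none was lower (2.03%), where 5.37% of all genes passed. At 6 h none was higher (1.63%) and 3 were lower (2.03%), where 3.66% of all genes passed. At 12 h 1 was higher (0.874%) and 2 were lower (0.879%), where 1.75% passed. The count of 3 at 6 h fell to 1 without any of the 3 wt 6 h arrays, and the count of 3 at 12 h was 6 without wt 12 h replicate 3.

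Set against empty retrovirus cells, RRR cells had 8 genes higher (7.18% of all genes) and 3 lower (6.63%) at 6 h, where 13.8% of all genes passed. They had 5 higher (5.11%) and 3 lower (4.97%) at 12 h, where 10.1% passed, and 3 higher (8.57%) and 6 lower (10.5%) at 24 h, where 19.1% passed. The wt cells had 10 higher (6.5%) and 3 lower (6.23%) at 6 h, where 12.7% passed. They had 7 higher (7.16%) and 3 lower (8.26%) at 12 h, where 15.4% passed, and 4 higher (11.4%) and 12 lower (14.0%) at 24 h, where 25.4% passed. Comparisons at the same time share the arrays of the group they have in common, so their counts are not independent. Without the 3 arrays named above, the counts at 24 h were 10 for RRR against wt cells, 10 for RRR against empty retrovirus cells and 16 for wt against empty retrovirus cells. Of the calls of single genes, 6 did not pass without these arrays. They were Col1a1 for RRR minus wt at 24 h (adjusted p = 0.0616), Col23a1 for wt minus empty retrovirus at 24 h (0.106), Col4a5 from 6 to 24 h in wt cells (0.351), Col4a2 from 6 to 24 h in RRR cells (0.0918), and the difference of changes between RRR and wt for Col4a1 (0.0545) and Col5a1 (0.0612).

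Median centring of the arrays moved some splits. It gave 12 higher and 1 lower for wt minus empty retrovirus at 6 h, in place of 10 and 3, and none higher and 1 lower for RRR minus wt at 12 h, where the values as deposited gave 1 higher and 4 lower.

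**Figure D1:**
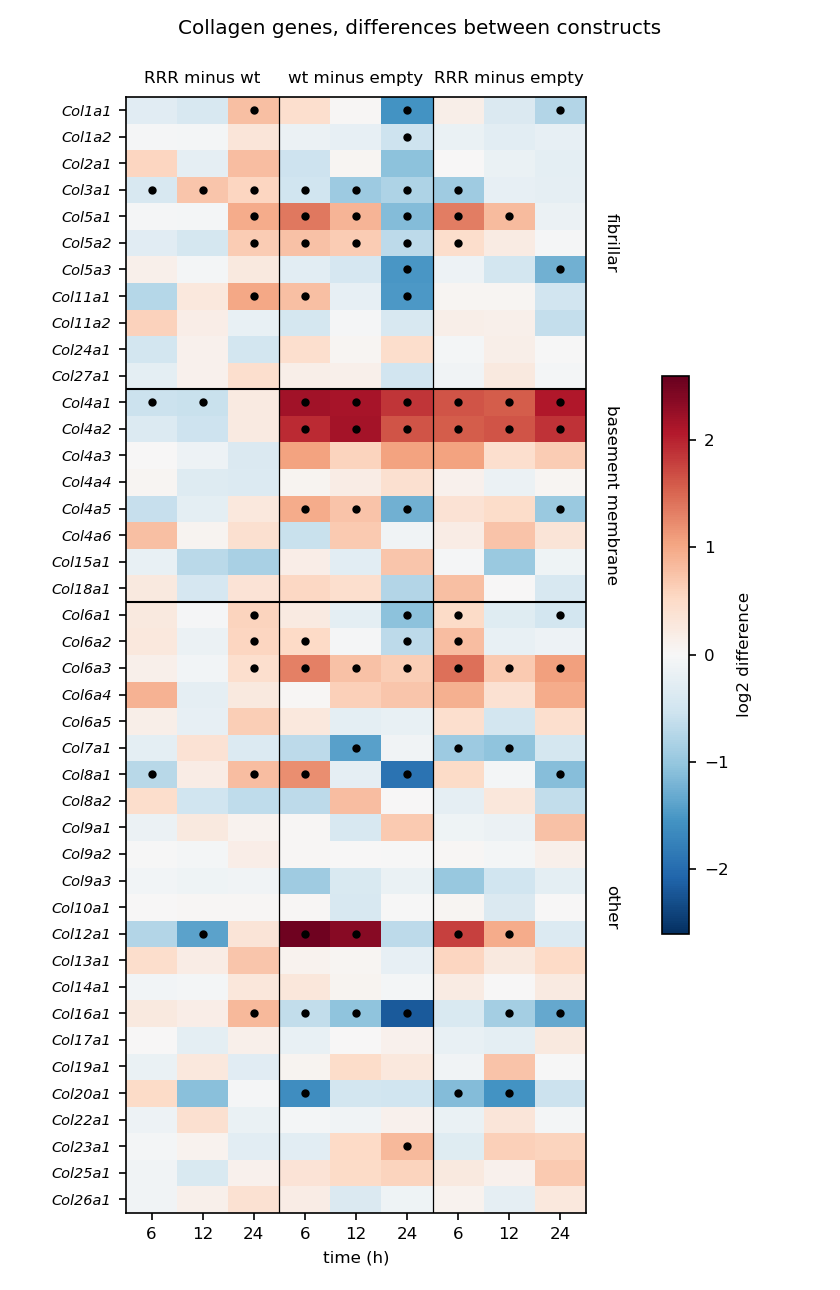
Log2 difference between constructs for the 42 collagen genes (rows, by class) at 6, 12 and 24 h (columns), in colour, with a dot where the adjusted p was under 0.05. The rows of Col4a1 and Col4a2 are red with a dot in all 6 comparisons with empty retrovirus cells, and the column of RRR minus wt at 24 h holds 10 dots, all on positive differences.

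Among the basement membrane genes, Col4a1 and Col4a2 encode the chains that combine to form the common type IV network. At 24 h Col4a1 read 6370, 5287 and 5651 in RRR cells and 5203, 6100 and 4037 in wt cells, against 1292, 1163 and 1306 in empty retrovirus cells. Every array of either fusion was above every empty retrovirus array, and the same held at 6 and 12 h. Col4a1 was higher by 1.64 ± 0.12, 1.57 ± 0.12 and 2.09 ± 0.12 in RRR cells at 6, 12 and 24 h (adjusted p = 5.26e-11, 9.47e-11 and 1.21e-13), and by 2.19 ± 0.12, 2.15 ± 0.12 and 1.85 ± 0.12 in wt cells (adjusted p = 6.59e-14, 5.77e-14 and 8.11e-13). At 24 h these differences are 4.27-fold in RRR cells and 3.61-fold in wt cells. Its second probe set gave 2.46 in RRR cells and 2.32 in wt cells at 24 h, both past the threshold.

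Col4a2 was also higher in both fusions at every time. It read 2623, 2323 and 2022 in RRR cells and 1994, 2108 and 2108 in wt cells at 24 h, against 739.6, 501.5 and 716.8 in empty retrovirus cells. RRR cells were higher by 1.58 ± 0.15, 1.63 ± 0.15 and 1.87 ± 0.15 at 6, 12 and 24 h (adjusted p = 1.88e-08, 8.77e-09 and 4.32e-10), and wt cells by 1.93 ± 0.15, 2.16 ± 0.15 and 1.63 ± 0.15 (adjusted p = 2.48e-10, 1.62e-11 and 1.95e-09). Within arrays, the log2 signal of Col4a1 minus that of Col4a2 averaged 1.26 ± 0.14 in RRR cells and 1.25 ± 0.3 in wt cells at 24 h, against 1.03 ± 0.2 in empty retrovirus cells (SD, n = 3 each), and the arrays of the groups overlapped. At 6 h it averaged 1.65 ± 0.12 in wt cells and 1.39 ± 0.14 in empty retrovirus cells, without overlap. At 12 h it was 1.37 ± 0.18 in wt cells and 1.39 ± 0.03 in empty retrovirus cells, with overlap. All 12 differences of this pair against empty retrovirus cells kept their direction and passed under every alternative setting.

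In wt cells both chains read far above the later empty retrovirus arrays at 0 h already. At 0 h Col4a1 read 4272, 5053 and 4417 and Col4a2 read 1893, 2246 and 2120, with no 0 h arrays of the other constructs used here for comparison. In wt cells Col4a1 was 0.81 ± 0.12 higher at 6 h than at 0 h (adjusted p = 8.91e-06), and Col4a2 differed by 0.24 ± 0.15 (adjusted p = 0.327). Summed signal of the 6 smooth muscle markers also stood higher in the fusion lines at 6 h, at 12030 to 15350 in RRR cells and 16420 to 21090 in wt cells, against 1415 to 1731 in empty retrovirus cells. At 24 h the sums were 6986 to 7512 in RRR cells and 8625 to 10490 in wt cells, against 4935 to 5695 in empty retrovirus cells, and 4 of the 6 markers reached 100 in at least 3 arrays. In wt cells the marker sum was 19800 to 28390 at 0 h already. The part of these markers in the Col4a1 and Col4a2 differences was not tested.

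Col4a1 was lower in RRR than in wt cells at the earlier times. Col4a1 read 5366, 4720 and 5458 in RRR cells at 6 h, against 6630, 8683 and 6002 in wt cells, and 4520, 4841 and 3910 in RRR cells at 12 h, against 6934, 6491 and 6232 in wt cells. The groups did not overlap at either time. The differences were -0.55 ± 0.12 at 6 h (adjusted p = 0.00739) and -0.58 ± 0.12 at 12 h (adjusted p = 0.00616). At 24 h the difference was 0.24 ± 0.12 and did not pass (adjusted p = 0.293). The second Col4a1 probe set gave -0.55 at 6 h and -0.6 at 12 h, and neither passed (adjusted p = 0.256 and 0.376). The 6 h and 12 h calls were lost with median centring of the arrays (adjusted p = 0.274 and 0.289). The mean of all probe sets (0.0593 and 0.0707) and the compared groups alone (0.167 and 0.0905) also ended both. At 6 h the values as deposited did so too (0.0836). Both calls were also lost with arrays left out. At 6 h this was without wt 6 h replicate 2 (adjusted p = 0.0545), and at 12 h without wt 12 h replicate 1 (0.0565) or RRR 12 h replicate 3 (0.0593). For Col4a2 the differences were -0.35 ± 0.15, -0.53 ± 0.15 and 0.24 ± 0.15 at 6, 12 and 24 h, and none passed.

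The starts of Col4a1 and Col4a2 lie head to head on chr8, and in the RefSeq annotation (GRCm38.p6) the genes overlap by 85 bases. Their promoter windows, from 250 bases before to 50 after each start, are shown because this pair moved together. The capitals mark the 78 bases that the windows have in common, read from opposite strands. The Col4a1 window is chr8:11312777-11313076 on the minus strand and the Col4a2 window is chr8:11312555-11312854 on the plus strand.
Col4a1: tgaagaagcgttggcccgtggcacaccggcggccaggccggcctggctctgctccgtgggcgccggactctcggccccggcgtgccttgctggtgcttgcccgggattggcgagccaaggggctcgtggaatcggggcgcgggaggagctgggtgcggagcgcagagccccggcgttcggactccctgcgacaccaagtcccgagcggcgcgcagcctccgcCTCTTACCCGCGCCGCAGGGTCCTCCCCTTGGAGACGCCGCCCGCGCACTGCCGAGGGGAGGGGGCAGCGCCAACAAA
Col4a2: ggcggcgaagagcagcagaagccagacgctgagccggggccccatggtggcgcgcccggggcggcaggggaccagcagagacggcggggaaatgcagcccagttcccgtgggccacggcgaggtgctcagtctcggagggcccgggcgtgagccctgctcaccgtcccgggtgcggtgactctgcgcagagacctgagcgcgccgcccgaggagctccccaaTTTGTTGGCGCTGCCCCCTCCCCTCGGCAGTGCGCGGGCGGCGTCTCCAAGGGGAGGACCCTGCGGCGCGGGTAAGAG
Neither window holds CANNTG, the E-box core that MyoD family factors are known to bind, and each holds 1 CCAAT on either strand. Of the 42 genes, 33 had promoter windows in the RefSeq table, 36 windows in all. CANNTG, which reads the same on both strands, was in 18 of the 36, against 72.3% of the 32851 windows of all genes. CAGCTG, an E-box included in that count, was in 7 (19.4%), against 16.3% of all windows, and CCAAT on either strand was in 13 (36.1%), against 37.4%. These are matches of letters in short windows, and nothing was measured about binding.

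Col4a5, which forms the chain network of kidney and other specialised basement membranes, behaved differently from Col4a1. Its 24 h signals were 399.7, 430.5 and 395.5 in RRR cells and 417.5, 436.9 and 214.4 in wt cells, against 823.4, 928.5 and 644.8 in empty retrovirus cells. All fusion arrays lay below all empty retrovirus arrays. The 24 h differences were -0.96 ± 0.2 in RRR cells (adjusted p = 0.000713) and -1.24 ± 0.2 in wt cells (adjusted p = 1.66e-05). At 6 h the wt difference was 0.97 ± 0.2 (adjusted p = 0.000909). In wt cells Col4a5 read 499.7, 453 and 409.6 at 0 h already, above the empty retrovirus arrays of 6 h. Between 6 and 24 h it rose by 1.64 ± 0.2 in empty retrovirus cells (adjusted p = 5.41e-07). A second probe set of Col4a5 gave -0.53 for wt minus empty retrovirus cells at 24 h and did not pass (adjusted p = 0.104). It also did not pass for RRR cells at 24 h (-0.45, adjusted p = 0.221) or wt cells at 6 h (0.42, 0.338). For the rise from 6 to 24 h in empty retrovirus cells it passed (1.12, adjusted p = 0.00065). The other 5 basement membrane genes, Col4a3, Col4a4, Col4a6, Col15a1 and Col18a1, passed in no comparison, with mean signals over all arrays of 9.73 to 99.1. Col15a1, a multiplexin of the muscle basement membrane, read 20.21, 51.2 and 30.56 in RRR cells and 75.01, 44.34 and 77.12 in wt cells at 24 h, against 68.22, 54.32 and 5.17 in empty retrovirus cells, and all these groups overlapped.

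**Figure D2:**
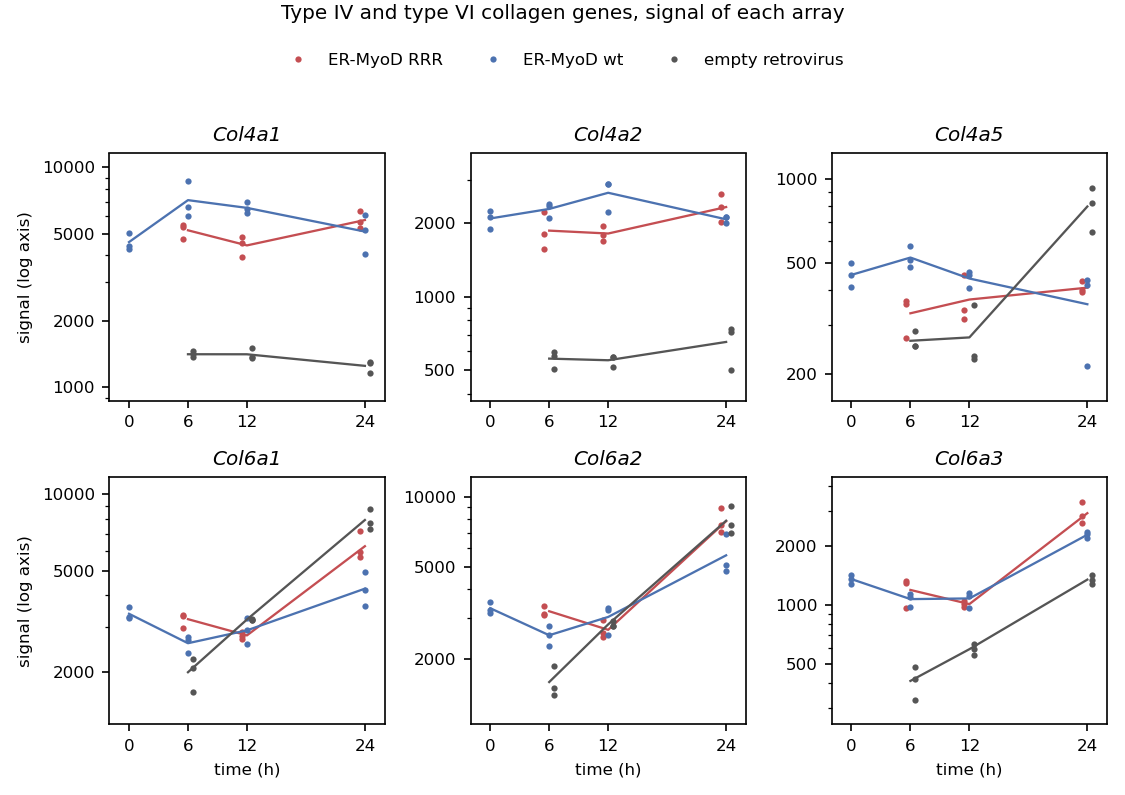
Deposited signal (log axis) of 3 type IV and 3 type VI collagen genes against time in hours, with a point for each array and a line through the group means for RRR, wt and empty retrovirus cells. Col4a1 and Col4a2 of both fusions lie above the empty retrovirus arrays at every time, while for Col6a1 the empty retrovirus arrays are the highest at 24 h, at 7317 to 8781.

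The fibrillar genes rose with time in empty retrovirus and RRR cells more often than in wt cells. Between 6 and 24 h, 7 of the 11 rose in empty retrovirus cells and none fell, where 15.7% of all genes passed, 8.09% upwards and 7.66% downwards. In RRR cells 6 rose and none fell over the same time (23.9% of all genes passed, 11.0% upwards and 12.9% downwards). In wt cells 1 rose and 2 fell (23.9% passed, 11.4% upwards and 12.4% downwards). The median change of the 11 genes was 0.62 in RRR cells, -0.17 in wt cells and 0.97 in empty retrovirus cells, while the median over all genes was -0.02 in RRR cells, 0.01 in wt cells and -0.02 in empty retrovirus cells. With median centring of the arrays the median of all genes moved to -0.13 in RRR cells, and there 7 in place of 11 of all collagen genes passed.

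Col1a1, which encodes the main chain of type I collagen, read 5026, 4113 and 3474 in RRR cells and 2629, 2781 and 2279 in wt cells at 24 h, against 6459, 6716 and 7031 in empty retrovirus cells. The 3 groups did not overlap. Col1a1 was 0.77 ± 0.21 lower in RRR cells (adjusted p = 0.00746, and 0.0602 without RRR 24 h replicate 3) and 1.55 ± 0.21 lower in wt cells (adjusted p = 7.59e-07), a 2.93-fold lower level in wt cells. At 6 h it had read 2233, 2359 and 3238 in RRR cells and 3247, 3116 and 2711 in wt cells, against 1754, 2462 and 1865 in empty retrovirus cells, and neither fusion differed past the threshold (adjusted p = 0.724 and 0.194). A second probe set of Col1a1, with a mean signal of 1078, did not pass against empty retrovirus cells at 24 h and gave 0.73 in RRR cells (adjusted p = 0.162) and -0.42 in wt cells (adjusted p = 0.474). The direction of Col1a1 in RRR cells against empty retrovirus cells therefore differed between its probe sets, and with their mean the difference was -0.02 (adjusted p = 0.967).

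Col1a2 encodes the partner chain of Col1a1. It read 11470, 8019 and 8826 in RRR cells and 7956, 8529 and 6381 in wt cells at 24 h, against 8797, 10630 and 9266 in empty retrovirus cells. RRR cells overlapped both other groups, while all wt arrays were below all empty retrovirus arrays. The difference was -0.53 ± 0.12 in wt cells (adjusted p = 0.00122), lost with median centring (adjusted p = 0.428), and -0.21 ± 0.12 in RRR cells (adjusted p = 0.267). Its other 2 probe sets gave -0.70 and -2.47 for wt minus empty retrovirus cells, both past the threshold (adjusted p = 2.44e-05 and 5.44e-10), so the size of the Col1a2 difference depended on the probe set. Within arrays and for the brightest probe sets, the log2 signal of Col1a1 minus that of Col1a2 at 24 h was -1.04 ± 0.17 in RRR cells and -1.5 ± 0.1 in wt cells, against -0.48 ± 0.11 in empty retrovirus cells (SD, n = 3 each). With 3 arrays against 3 the exact permutation test (two-sided) gave p = 0.1 for both fusions, the smallest value this design allows.

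**Figure D3:**
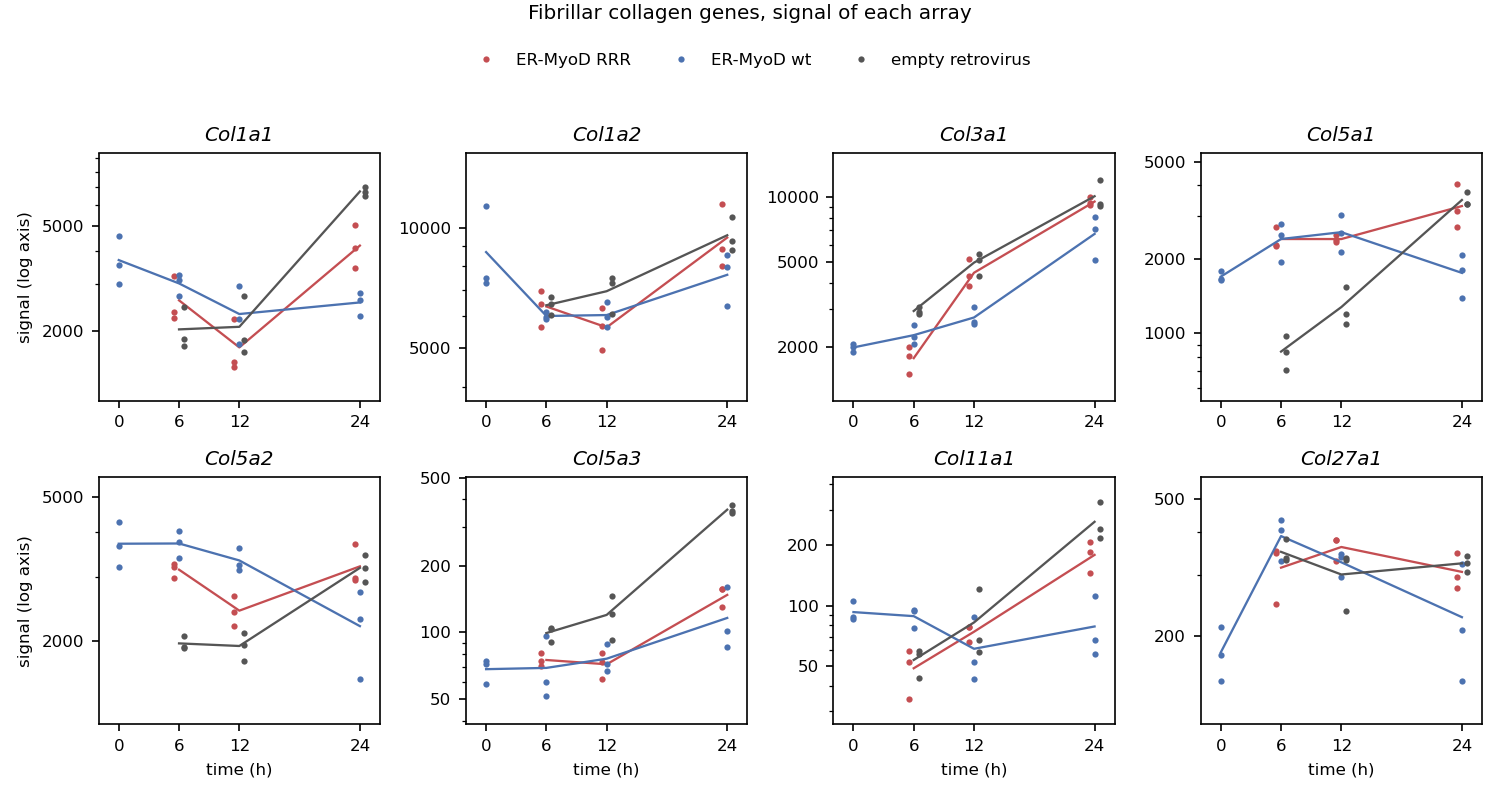
Deposited signal (log axis) of the 8 fibrillar collagen genes with a signal of at least 100 in 3 or more arrays, against time in hours, with a point for each array and a line through the group means. For Col1a1, Col5a3 and Col11a1 the empty retrovirus arrays at 24 h lie above all wt arrays of that time, and the RRR arrays of Col1a1 and Col11a1 lie between.

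Col3a1, the chain of type III collagen of soft tissues, rose with time in every construct. It read 1505, 2000 and 1828 in RRR cells and 2543, 2220 and 2061 in wt cells at 6 h, against 3088, 2851 and 2903 in empty retrovirus cells. At 24 h it read 10010, 9415 and 9172 in RRR cells and 7093, 8039 and 5079 in wt cells, against 9060, 11970 and 9247 in empty retrovirus cells. RRR cells were thus below the others at 6 h, while at 24 h they overlapped the empty retrovirus arrays and all wt arrays were lowest. The rise from 6 to 24 h was 2.51 ± 0.11 in RRR cells, 1.54 ± 0.11 in wt cells and 1.82 ± 0.11 in empty retrovirus cells (adjusted p = 1.53e-15, 2.16e-11 and 2.33e-12). RRR minus wt was -0.41 ± 0.11 at 6 h, 0.73 ± 0.11 at 12 h and 0.56 ± 0.11 at 24 h (adjusted p = 0.0396, 0.000271 and 0.00242). The rise was 0.98 ± 0.16 larger in RRR cells than in wt cells (adjusted p = 0.00105). The second Col3a1 probe set gave -0.37, 0.72 and 1.11 for RRR minus wt at these times, of which the 12 h and 24 h differences passed. With median centring all 3 differences kept their direction and none passed (adjusted p = 0.484, 0.185 and 0.424). The 6 h difference also did not pass without any of wt 6 h replicates 1, 2 and 3 (adjusted p = 0.2, 0.08 and 0.0513) or RRR 6 h replicates 1 and 3 (0.173 and 0.0823).

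Type V collagen is a minor fibrillar type that helps to start type I fibrils, and Col5a1 and Col5a2 encode its common chains. At 6 h Col5a1 read 2717, 2284 and 2258 in RRR cells and 2782, 2520 and 1957 in wt cells, against 841.5, 977.4 and 711.2 in empty retrovirus cells. At 24 h it read 4042, 2703 and 3138 in RRR cells and 1812, 2084 and 1390 in wt cells, against 3361, 3742 and 3358 in empty retrovirus cells. Both fusions were thus above the empty retrovirus at 6 h, and at 24 h the wt arrays were all below both other groups. In wt cells Col5a1 read 1789, 1658 and 1656 at 0 h already, above the empty retrovirus arrays of 6 h. Col5a1 was 1.34 ± 0.18 higher in RRR cells and 1.38 ± 0.18 higher in wt cells at 6 h (adjusted p = 3.01e-06 and 1.42e-06). At 24 h it differed by -0.15 ± 0.18 in RRR cells (adjusted p = 0.638) and was 1.12 ± 0.18 lower in wt cells (adjusted p = 1.29e-05). Its change from 6 to 24 h was 2.5 ± 0.25 smaller in wt cells than in empty retrovirus cells (adjusted p = 2.25e-08).

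Col5a2 read 3716, 2985 and 2955 in RRR cells and 2300, 2727 and 1571 in wt cells at 24 h, against 3185, 3457 and 2922 in empty retrovirus cells. In wt cells it read 3676, 4264 and 3215 at 0 h already, above the empty retrovirus arrays of 6 h. It was higher in both fusions at 6 h, by 0.45 ± 0.13 in RRR cells and 0.76 ± 0.13 in wt cells (adjusted p = 0.0151 and 7.89e-05). The RRR difference did not pass without RRR 6 h replicate 1 (adjusted p = 0.0667) or empty retrovirus 6 h replicates 1 and 3 (0.0511 and 0.052). At 24 h it was 0.68 ± 0.13 lower in wt cells (adjusted p = 0.000122), lost with median centring (adjusted p = 0.0733), and in RRR cells it differed by -0.03 ± 0.13 with a 95% interval of -0.29 to 0.23. Col5a3, a further type V chain, read 129.7, 157 and 156.5 in RRR cells and 86.3, 102 and 160.5 in wt cells at 24 h, against 345.4, 377.1 and 352.6 in empty retrovirus cells. It was 1.25 ± 0.2 lower in RRR cells and 1.51 ± 0.2 lower in wt cells (adjusted p = 2.22e-05 and 6.52e-07). Its other probe set, at a mean signal of 9.98, gave -0.21 and -0.02 and did not pass (adjusted p = 0.733 and 0.98).

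Col11a1, whose chain regulates fibril width in cartilage and also occurs with type V, was low at 6 h and rose in 2 of the 3 constructs. By 24 h it read 206.9, 145.5 and 183.9 in RRR cells and 67.7, 57.4 and 111.7 in wt cells, against 325.9, 240.5 and 216 in empty retrovirus cells. Its change from 6 to 24 h was 1.44 ± 0.24 in RRR cells and 1.99 ± 0.24 in empty retrovirus cells (adjusted p = 2.34e-05 and 3.4e-07), and -0.29 in wt cells, where it did not pass. Its second probe set gave 1.19 for RRR minus wt cells and -2.42 for wt minus empty retrovirus cells at 24 h, both past the threshold. Of the remaining fibrillar genes, Col2a1 and Col24a1 passed in no comparison and stayed at mean signals of 44.7 and 7.59. Col27a1 passed only within wt cells, with 0.94 ± 0.19 at 6 h against 0 h (adjusted p = 0.000529) and -0.76 ± 0.19 at 24 h against 6 h (adjusted p = 0.003). Col11a2, with a mean signal of 32.0, passed only at 24 h against 0 h in wt cells (1.17 ± 0.44, adjusted p = 0.0411), and leaving out any array other than wt 24 h replicate 3 of the 6 ended that call (adjusted p = 0.0532 to 0.194).

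Across the class, 7 of 11 fibrillar genes were lower in wt cells than in empty retrovirus cells at 24 h and none was higher, where 14.0% of all genes were lower. The median difference was -0.80, against 0.03 over all genes. In RRR cells 2 of 11, Col1a1 and Col5a3, were lower than in empty retrovirus cells (10.5% of all genes were lower), with a median of -0.23. Between RRR and wt cells at 24 h, 5 of the 11 were higher in RRR cells and none lower, with a median of 0.56 against 0.00 over all genes. Fibroblast markers moved with these genes. Their summed signal at 24 h was 30370 to 34810 in RRR cells and 20210 to 24750 in wt cells, against 37690 to 47120 in empty retrovirus cells. Of the 12 fibroblast markers, 6 were higher in RRR than in wt cells (3.34% of all genes), and 9 were lower in wt than in empty retrovirus cells (14.0%). Fewer fibroblast-like cells and less collagen RNA per cell cannot be told apart in such bulk samples, and the part of the markers in the fibrillar differences was not tested.

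The 10 genes higher in RRR than in wt cells at 24 h were Col1a1, Col3a1, Col5a1, Col5a2 and Col11a1 of the fibrillar class and Col6a1, Col6a2, Col6a3, Col8a1 and Col16a1 of the other types. Their differences ran from 0.43 ± 0.13 for Col6a3 (adjusted p = 0.044) to 1.0 ± 0.24 for Col11a1 (adjusted p = 0.00939). Col5a1 differed by 0.97 ± 0.18 (adjusted p = 0.00086), Col16a1 by 0.84 ± 0.2 (adjusted p = 0.00862) and Col1a1 by 0.78 ± 0.21 (adjusted p = 0.0202). For each of the 10, all RRR arrays lay above all wt arrays. The genes were picked by this same comparison, so that separation adds no support. Other probe sets, where present, gave the same direction. They did not pass for Col1a1 (1.15, adjusted p = 0.0528) and Col8a1 (0.63 and 0.9, adjusted p = 0.0518 and 0.512). For Col5a1 the brighter one passed (0.92, adjusted p = 1.06e-05) and the other did not (0.74, 0.08). Those of Col3a1, Col5a2, Col6a2 and Col11a1 passed. With median centring of the arrays 2 of the 10 passed, and with only the groups compared in the fit 4 did. Leaving out RRR 24 h replicate 1 ended the calls of Col1a1 (adjusted p = 0.116), Col6a3 (0.197), Col11a1 (0.0658) and Col16a1 (0.0907). Col16a1 also did not pass without wt 24 h replicate 2 (adjusted p = 0.0629), and Col1a1 did not without wt 24 h replicates 2 and 3 (0.0556 and 0.0651) or RRR 24 h replicate 2 (0.0673). With arrays left out 1 at a time, Col6a3 passed without RRR 24 h replicate 3 and did not pass without any of the other 5 (adjusted p = 0.0691 to 0.197). The change from 6 to 24 h was larger in RRR than in wt cells for 6 collagen genes and smaller for none (2.03% of all genes passed, 1.33% larger and 0.704% smaller), and 1 of these 6 passed with median centring. The 6 were Col11a1 (1.73 ± 0.33), Col8a1 (1.54 ± 0.24), Col5a1 (1.01 ± 0.25), Col3a1 (0.98 ± 0.16), Col5a2 (0.96 ± 0.18) and Col4a1 (0.79 ± 0.17). For Col5a1 this difference did not pass without any of wt 6 h replicates 1 and 2, wt 24 h replicate 3, RRR 6 h replicate 3 and RRR 24 h replicate 1 (adjusted p = 0.0639 to 0.0939).

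**Figure D4:**
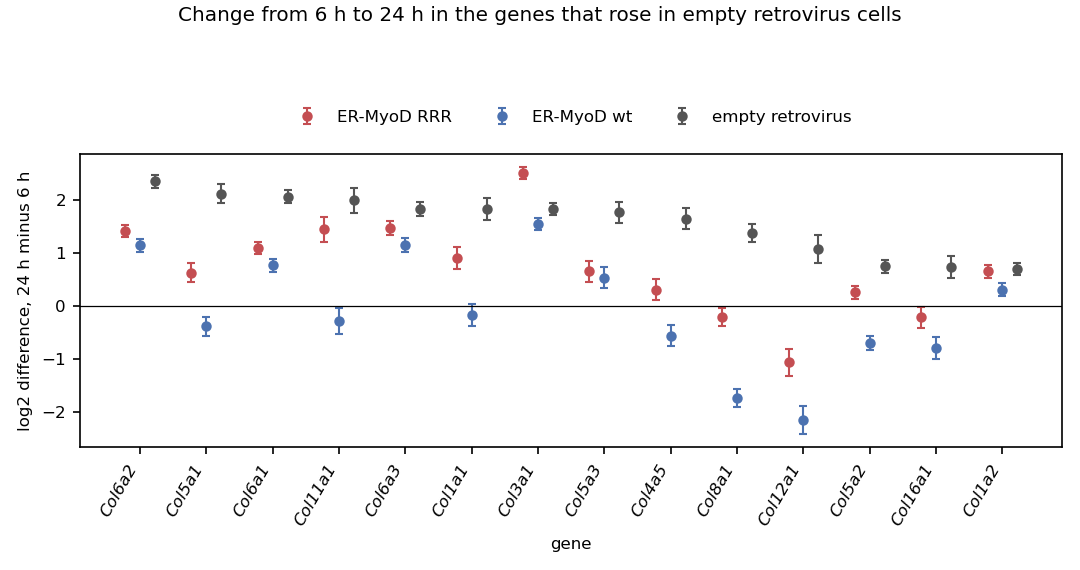
Log2 difference between 24 h and 6 h (points) with its standard error (bars) for the 14 collagen genes that rose in empty retrovirus cells, in RRR, wt and empty retrovirus cells. The genes were chosen by the empty retrovirus values. The wt point is the lowest for all 14, with Col5a1 at -0.39 and Col8a1 at -1.75, and Col3a1 is the gene whose RRR point, at 2.51, is the highest of the 3.

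Over the whole family, the change from 6 to 24 h was smaller in wt cells than in empty retrovirus cells for 12 genes and larger for none, where 14.7% of all genes passed, 6.46% with a larger and 8.26% with a smaller change. The plot of changes between 6 and 24 h shows these genes by construct. In empty retrovirus cells 14 collagen genes rose and none fell over this time, in RRR cells 10 rose and 1 fell, and in wt cells 5 rose and 7 fell. Of all genes, 8.09% rose and 7.66% fell in empty retrovirus cells, 11.0% and 12.9% in RRR cells, and 11.4% and 12.4% in wt cells. In either direction, 26.2% of the collagen genes passed in RRR cells and 28.6% in wt cells, near the 23.9% of all genes in both.

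Type VI collagen is assembled from chains of Col6a1, Col6a2 and Col6a3, and the loss of any of them causes muscle disease in humans. Col6a3 read 3349, 2824 and 2605 in RRR cells and 2300, 2339 and 2180 in wt cells at 24 h, against 1423, 1332 and 1276 in empty retrovirus cells. In wt cells it read 1361, 1276 and 1418 at 0 h already, above the empty retrovirus arrays of 6 and 12 h. No 0 h arrays of the other constructs were used here. Every fusion array was above every empty retrovirus array at 24 h, as at 6 and 12 h. It was higher by 1.43 ± 0.13, 0.68 ± 0.13 and 1.06 ± 0.13 in RRR cells at 6, 12 and 24 h (adjusted p = 3.31e-09, 0.000439 and 3.64e-07), and by 1.3 ± 0.13, 0.76 ± 0.13 and 0.63 ± 0.13 in wt cells (adjusted p = 1.24e-08, 5.63e-05 and 0.000351).

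Col6a1 ran the other way at 24 h. It read 7163, 5913 and 5685 in RRR cells and 4203, 4929 and 3633 in wt cells, against 7317, 8781 and 7696 in empty retrovirus cells. It was 0.48 ± 0.12 lower in RRR cells and 1.06 ± 0.12 lower in wt cells (adjusted p = 0.00342 and 3.09e-08). The RRR difference was lost with median centring (adjusted p = 0.146). Col6a2 read 8963, 7046 and 7515 in RRR cells and 5068, 6915 and 4797 in wt cells, against 6960, 9096 and 7567 in empty retrovirus cells, and was 0.69 ± 0.12 lower in wt cells (adjusted p = 2.78e-05), also lost with median centring (adjusted p = 0.108). Within arrays, the log2 signal of Col6a3 minus that of Col6a1 at 24 h was -1.03 ± 0.04 in RRR cells and -0.89 ± 0.15 in wt cells, against -2.57 ± 0.12 in empty retrovirus cells (SD, n = 3 each). The partner chains thus changed unequally, by 1.54 in RRR cells and 1.69 in wt cells, and the groups did not overlap (exact permutation test, two-sided, p = 0.1 for both, the smallest possible). Col6a1 and Col6a2 are neighbours on chr10, while Col6a3 lies on chr1. All 3 rose from 6 to 24 h in every construct, and the rise was smaller in wt than in empty retrovirus cells, by 1.3 ± 0.16 for Col6a1, 1.21 ± 0.16 for Col6a2 and 0.68 ± 0.18 for Col6a3 (adjusted p = 1.15e-06, 3.06e-06 and 0.0095). Col6a4 and Col6a5 passed in no comparison, at mean signals of 42.0 and 27.1.

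Col8a1 encodes a short-chain collagen found in vessel walls and beneath the corneal endothelium, and its order between constructs turned over with time. At 6 h it read 739.2, 657.8 and 581.4 in RRR cells and 1164, 1031 and 1191 in wt cells, against 428.7, 452.3 and 473.7 in empty retrovirus cells. At 24 h it read 540, 542.4 and 525.1 in RRR cells and 256.7, 522.3 and 221.5 in wt cells, against 1147, 1074 and 1128 in empty retrovirus cells. The 3 groups did not overlap at either time, and empty retrovirus cells were lowest at 6 h and highest at 24 h. In wt cells Col8a1 read 828.2, 746.7 and 645.8 at 0 h already, above the empty retrovirus arrays of 6 h. At 24 h Col8a1 was 1.1 ± 0.17 lower in RRR cells and 1.92 ± 0.17 lower in wt cells (adjusted p = 2.07e-05 and 7.47e-10). RRR minus wt was -0.72 ± 0.17 at 6 h and 0.81 ± 0.17 at 24 h (adjusted p = 0.0157 and 0.00375), and with median centring neither passed (adjusted p = 0.0954 and 0.185). The 6 h difference also did not pass without wt 6 h replicates 1 or 3 (adjusted p = 0.0669 and 0.0671) or RRR 6 h replicate 3 (0.0879). From 6 to 24 h it fell by 1.75 ± 0.17 in wt cells and rose by 1.38 ± 0.17 in empty retrovirus cells.

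Collagens of the FACIT group do not form fibrils but bind to their surface, and Col12a1 and Col16a1 belong to it. Col12a1 at 6 h read 743.4, 291 and 491 in RRR cells and 1068, 662.9 and 852.9 in wt cells, against 149.1, 151.7 and 111.4 in empty retrovirus cells. By 24 h it read 267.3, 178.8 and 238 in RRR cells and 220.2, 187.5 and 128.4 in wt cells, against 308.9, 298 and 277.2 in empty retrovirus cells. The 6 h difference was 1.78 ± 0.26 in RRR cells and 2.53 ± 0.26 in wt cells (adjusted p = 1.58e-05 and 3.56e-08). In wt cells Col12a1 read 945.7, 586.9 and 902.8 at 0 h already, above the empty retrovirus arrays of 6 h. At 24 h the differences were -0.36 ± 0.26 in RRR cells and -0.69 ± 0.26 in wt cells and did not pass (adjusted p = 0.409 and 0.0551). At 12 h RRR cells read 303.3, 195 and 220.5 against 840.4, 577.3 and 566.2 in wt cells, a difference of -1.4 ± 0.26 (adjusted p = 0.00284). A second Col12a1 probe set gave -0.73 for that difference (adjusted p = 0.362) and 1.03 for RRR and 1.74 for wt minus empty retrovirus cells at 6 h (adjusted p = 0.0137 and 4.58e-05). With the mean of all probe sets the 12 h difference between RRR and wt cells did not pass (-0.62, adjusted p = 0.173).

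Col16a1 was lower in both fusions than in empty retrovirus cells at 12 and 24 h. By 24 h Col16a1 read 625.3, 397.6 and 423.8 in RRR cells and 293.4, 206.6 and 289.3 in wt cells, against 1296, 1054 and 1127 in empty retrovirus cells, and the 3 groups did not overlap. It was 1.34 ± 0.2 lower in RRR cells and 2.19 ± 0.2 lower in wt cells (adjusted p = 7.91e-06 and 7.54e-10), which is 2.54-fold and 4.55-fold. At 12 h the differences were -0.88 ± 0.2 in RRR cells and -1.05 ± 0.2 in wt cells (adjusted p = 0.00278 and 0.00023), and the RRR difference was lost with median centring (-0.61, adjusted p = 0.0933). At 6 h wt cells alone passed, at -0.65 ± 0.2 (adjusted p = 0.0253, but 0.193 without wt 6 h replicate 3 and 0.184 without empty retrovirus 6 h replicate 2).

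**Figure D5:**
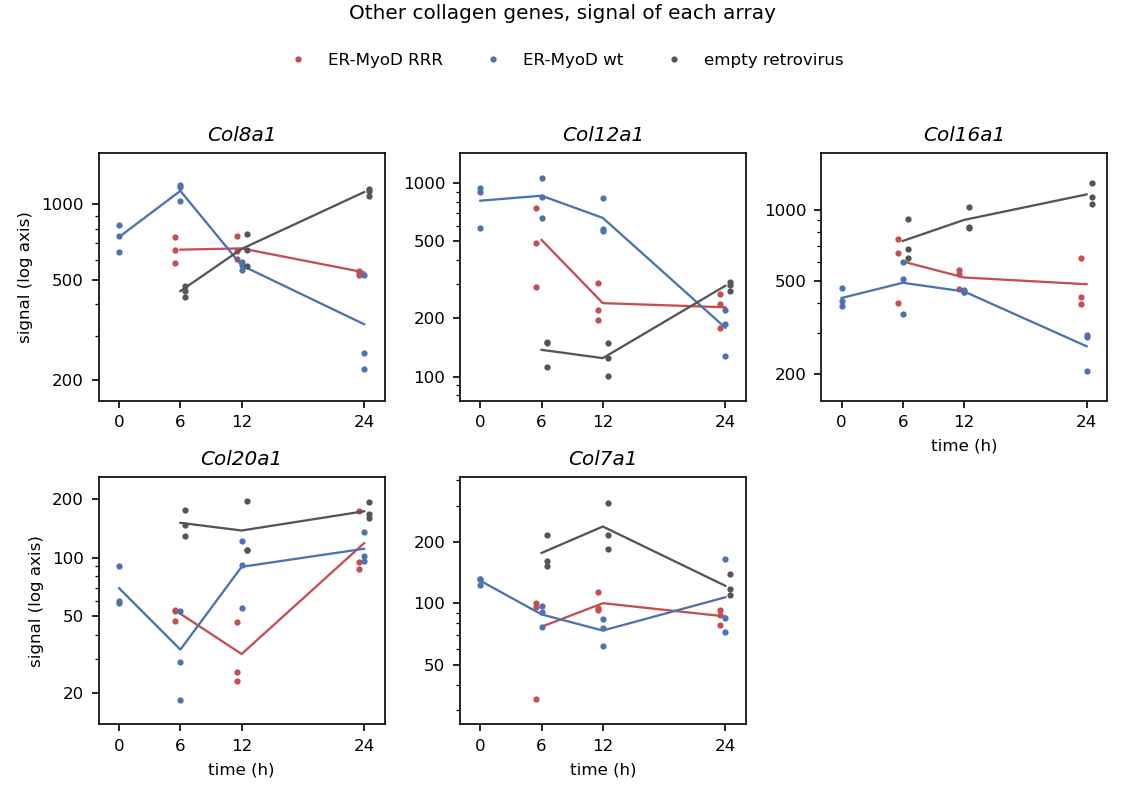
Deposited signal (log axis) of 5 collagen genes of other types against time in hours, with a point for each array and a line through the group means. Col16a1 lies highest in empty retrovirus cells at 24 h, at 1054 to 1296, while the mean of Col12a1 is highest in wt cells at 6 and 12 h and its wt arrays read 128.4 to 220.2 at 24 h.

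Promoter windows (GRCm38.p6, 250 bases before to 50 after the start) are shown for 3 genes, picked after their values were seen as examples of different time courses. They are Col3a1 at chr1:45311288-45311587 (plus strand), Col8a1 at chr16:57754688-57754987 (minus strand) and Col16a1 at chr4:130047590-130047889 (plus strand). The capitals mark CANNTG.
Col3a1: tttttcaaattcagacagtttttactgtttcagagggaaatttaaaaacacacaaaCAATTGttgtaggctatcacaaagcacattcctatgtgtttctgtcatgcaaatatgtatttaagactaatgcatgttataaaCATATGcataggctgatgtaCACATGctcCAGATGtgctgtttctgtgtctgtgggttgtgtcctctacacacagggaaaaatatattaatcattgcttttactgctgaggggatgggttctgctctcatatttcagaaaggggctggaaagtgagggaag
Col8a1: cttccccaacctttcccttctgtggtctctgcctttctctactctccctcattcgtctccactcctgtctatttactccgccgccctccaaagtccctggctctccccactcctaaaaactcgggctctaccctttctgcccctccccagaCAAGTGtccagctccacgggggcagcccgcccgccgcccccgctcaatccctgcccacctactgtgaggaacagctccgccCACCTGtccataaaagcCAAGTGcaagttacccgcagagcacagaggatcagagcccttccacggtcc
Col16a1: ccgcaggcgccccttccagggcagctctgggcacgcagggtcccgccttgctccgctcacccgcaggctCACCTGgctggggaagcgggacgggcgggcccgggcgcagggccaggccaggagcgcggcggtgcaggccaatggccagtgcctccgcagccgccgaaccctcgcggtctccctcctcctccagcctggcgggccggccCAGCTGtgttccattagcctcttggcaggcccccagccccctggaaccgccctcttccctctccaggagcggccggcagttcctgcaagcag
Col3a1 holds 4 matches, Col8a1 holds 3 and Col16a1 holds 2, of which 1 is CAGCTG. The genes moved in different directions in the fusion cells at 6 h, with Col8a1 higher and Col3a1 and Col16a1 lower in wt cells. The Col3a1 call was lost with median centring (-0.18, adjusted p = 0.723) and with the values as deposited (-0.38, adjusted p = 0.127), and the Col16a1 call with median centring (-0.39, adjusted p = 0.323).

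Of the other types, 2 further genes were lower in both fusions at 6 or 12 h, both at low signals. Col20a1, a FACIT collagen, read 53.75, 53.2 and 47.12 in RRR cells and 53.29, 28.9 and 18.49 in wt cells at 6 h, against 147, 176.5 and 129.7 in empty retrovirus cells. It was 1.13 ± 0.3 lower in RRR cells and 1.61 ± 0.3 lower in wt cells (adjusted p = 0.00896 and 0.00024), and its other 3 probe sets did not pass at 6 h. Col7a1, the anchoring fibril collagen of skin, read 92.7, 94.78 and 113.3 in RRR cells and 83.47, 61.62 and 75.97 in wt cells at 12 h, against 311.1, 185.4 and 216.6 in empty retrovirus cells. It was 1.05 ± 0.25 lower in RRR cells and 1.42 ± 0.25 lower in wt cells (adjusted p = 0.00569 and 0.00013), and the RRR difference did not pass without empty retrovirus 12 h replicate 1 (0.0547).

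Col23a1, a transmembrane collagen, was 0.85 ± 0.28 higher in wt cells at 24 h when set against the empty retrovirus (adjusted p = 0.0235), at signals of 56.8, 71.36 and 109.8 against 51.1, 34.65 and 31.03. Its other probe sets gave -0.04 and -0.77, and it did not pass without wt 24 h replicates 2 or 3 (adjusted p = 0.0634 and 0.109) or empty retrovirus 24 h replicates 2 or 3 (0.0799 and 0.0757). Col25a1, a transmembrane collagen needed in mice for motor axons to innervate muscle, passed in no comparison. It read 123, 104.6 and 143.3 in RRR cells and 110.8, 56.72 and 159.6 in wt cells at 24 h, against 50.5, 91.24 and 70.39 in empty retrovirus cells, and the RRR arrays alone lay above the empty retrovirus arrays. Col13a1, a transmembrane collagen of the neuromuscular junction, and Col19a1, a FACIT collagen known from embryonic muscle, also passed in no comparison, at mean signals of 14.5 and 39.1. In all, 14 of the 23 genes of other types passed in no comparison, with mean signals of 3.99 to 94.6.

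A total of 23 members reached a signal of 100 in 3 or more arrays, of which 8 were fibrillar, 5 basement membrane and 10 of other types. Of the 19 below that level, Col11a2 and Col23a1 had a call. A low signal bounds what could be seen, and no detection calls were used. Where a called collagen gene had another probe set, 171 such pairs of values could be made. In 147 the direction was the same, in 82 the other probe set also passed, and in none did it pass in the opposite direction.

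Within wt cells, 6 collagen genes had changed by 6 h after 0 h, with 4 higher and 2 lower (17.7% of all genes passed, 9.52% higher and 8.2% lower). The count was 2, both higher, with median centring, 2 without wt 0 h replicate 3 and 3 without any of the 3 wt 6 h arrays. By 24 h, 7 were higher and 4 lower than at 0 h (30.7% passed, 14.5% higher and 16.2% lower), and with median centring 5 were higher and 5 lower. The changes by 24 h included Col3a1, which rose by 1.83 ± 0.11 (adjusted p = 2.78e-13), and Col6a2, which rose by 0.9 ± 0.12 (adjusted p = 3.33e-07). Col12a1 fell by 2.07 ± 0.26 (adjusted p = 2.93e-07) and Col8a1 fell by 1.18 ± 0.17 (adjusted p = 2.93e-06). Col12a1 read 220.2, 187.5 and 128.4 at 24 h against 945.7, 586.9 and 902.8 at 0 h. With no 0 h arrays of the other constructs used here, medium, hormone and fusion cannot be told apart in these changes.

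Collagen chains depend on enzymes that fold, cross-link and trim them, and they are described here beside the chains. Of 22 measured genes for chain synthesis and modification, 1 was higher and 6 lower in RRR cells, and 2 higher and 7 lower in wt cells, than in empty retrovirus cells at 24 h. Of all genes, 8.57% were higher and 10.5% lower in RRR cells, and 11.4% higher and 14.0% lower in wt cells. At 6 h 8 were higher and 1 lower in RRR cells (7.18% and 6.63% of all genes), and 6 higher and none lower in wt cells (6.5% and 6.23%). Serpinh1, the procollagen chaperone, was 0.86 ± 0.12 higher in RRR cells and 1.03 ± 0.12 higher in wt cells at 6 h (adjusted p = 7.66e-06 and 3.47e-07). P4ha2, a prolyl hydroxylase subunit, was 0.7 ± 0.11 higher in RRR cells and 0.83 ± 0.11 higher in wt cells at 6 h, and at 12 h it was 1.03 ± 0.11 lower in RRR than in wt cells (adjusted p = 8.19e-07). Tmem38b, a cation channel of the endoplasmic reticulum whose loss disturbs collagen synthesis in humans, was 3.11 ± 0.28 higher in RRR cells and 3.61 ± 0.28 higher in wt cells at 24 h (adjusted p = 1.7e-09 and 3.02e-11). Crtap, which helps to modify prolines of type I chains, was 0.47 ± 0.11 lower in RRR cells and 1.11 ± 0.11 lower in wt cells at 24 h (adjusted p = 0.00214 and 3.16e-09).

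Of 14 measured genes for procollagen processing and fibril assembly, 1 was higher and 7 lower in RRR cells (8.57% and 10.5% of all genes), and 1 higher and 8 lower in wt cells (11.4% and 14.0%), than in empty retrovirus cells at 24 h. The medians were -0.47 in RRR cells and -1.16 in wt cells, against 0.03 in both over all genes. Bmp1, which removes the C-terminal propeptides of fibrillar procollagens, was 2.01 ± 0.21 lower in RRR cells and 2.76 ± 0.21 lower in wt cells (adjusted p = 2.6e-08 and 2.15e-11). Pcolce, which enhances that step, was 0.76 ± 0.11 lower in RRR cells and 1.43 ± 0.11 lower in wt cells (adjusted p = 8.37e-06 and 4.22e-11). Postn, a matrix protein that promotes cross-linking, was 1.13 ± 0.12 lower in RRR cells and 2.07 ± 0.12 lower in wt cells (adjusted p = 4.51e-08 and 1.24e-13). Between RRR and wt cells at 24 h, 7 of the 14 were higher in RRR cells (3.34% of all genes) and none lower (2.03%), led by Dpt (1.51 ± 0.14, adjusted p = 5e-08), which is also among the fibroblast markers.

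Of 11 measured collagen receptor and uptake genes, 1 was higher and 2 lower in both fusions than in empty retrovirus cells at 24 h. These shares are near those of all genes, of which 8.57% were higher and 10.5% lower in RRR cells and 11.4% higher and 14.0% lower in wt cells. The lower ones were Ddr2, a kinase receptor for fibrillar collagen, by 1.43 ± 0.12 in RRR cells and 1.96 ± 0.12 in wt cells, and Mrc2, an endocytic collagen receptor, by 1.12 ± 0.17 in RRR cells and 2.41 ± 0.17 in wt cells. Of 20 measured regulators of collagen genes, 1 was higher and 8 lower in RRR cells (8.57% and 10.5% of all genes), and none higher and 9 lower in wt cells (11.4% and 14.0%), at 24 h. Tgfbr2, the type II receptor for TGF-beta, was 1.02 ± 0.19 lower in RRR cells and 1.85 ± 0.19 lower in wt cells (adjusted p = 0.000169 and 5.99e-09). Twist2, a fibroblast-enriched bHLH factor, was 1.42 ± 0.15 higher in RRR than in wt cells at 24 h (adjusted p = 3.15e-07) and 1.93 ± 0.15 lower in wt than in empty retrovirus cells (adjusted p = 2.22e-11). At 6 h Ccn2, a matricellular target of TGF-beta signalling, was 3.07 ± 0.29 higher in RRR cells and 2.7 ± 0.29 higher in wt cells (adjusted p = 1.12e-08 and 7.34e-08).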

How the data were processed

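Gene expression was measured on 30 1-colour Affymetrix arrays, grouped by their titles and descriptions. The deposited table holds intensity values on a linear scale. In each column the mean after removal of 2% at each end is about 150; the software behind the deposited intensity values is not given in the sources used here. Of 45101 probe sets, 64 controls were left out. By the GEO platform annotation, 34945 of the remaining 45037 had a single symbol, 932 several and 9160 none. The deposited intensities were converted to log2(signal + 16), then quantile-normalised and reduced to the probe set of highest mean per gene (18193 genes). A model of 10 group means (20 residual degrees of freedom) was fitted with limma 3.58.1 (lmFit, eBayes with trend, R 4.3.3), for 16 comparisons including 2 of changes over time. The precision is limited by 3 arrays a group. The procedure was tested on simulated data.

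All collagen genes were counted by class. Values per array were given for those of highest mean signal, for the largest rises and falls past the threshold in a comparison and for members with a role in muscle, and of each other list for up to 4 genes with the smallest p. The members and lists were chosen with earlier results of these data known. Col12a1 and Col23a1 values of further probe sets, and the promoters shown, were picked after the values were seen. Alternatives were other normalisations and pseudocounts (1 and 64), a filter on low values, the mean of all probe sets, fits of the compared groups alone, no trend, a replicate block, leaving out 3 arrays that stood apart and leaving out each array. Deviations of same-numbered arrays of different groups correlated at -0.108 to 0.177 (median 0.0128, 135 pairs). Those of differently numbered arrays correlated at -0.211 to 0.213 (median -0.00892, 270 pairs). Over 0.1 were 7 of the 135 and 6 of the 270 pairs, so a weak pairing by replicate number was not excluded. Gene positions and promoter windows are from RefSeq (GRCm38.p6).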

Additional observations from a re-analysis of the deposited data

Results flagged for a closer look

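The change from 6 to 24 h differed between constructs for 18 combinations of gene and comparison, by the interaction term of the limma model with n = 3 arrays a group. It was smaller in wt cells than in empty retrovirus cells for the short-chain gene Col8a1 (-3.13), the fibril-associated Col12a1 (-3.23) and Col16a1 (-1.53), and the basement membrane gene Col4a5 (-2.21). The same held for the fibrillar genes Col1a1 (-1.99), Col5a1 (-2.5), Col5a2 (-1.44), Col5a3 (-1.24) and Col11a1 (-2.28), and for Col6a1 (-1.3), Col6a2 (-1.21) and Col6a3 (-0.68) of type VI. The adjusted p of these 12 ran from 2.57e-10 for Col8a1 to 0.0095 for Col6a3. Other probe sets did not pass for Col1a1 (-0.79, adjusted p = 0.39), Col4a5 (-0.95, 0.0564) and Col5a3 (0.09, 0.947, at a mean signal of 9.98). Those of Col5a1, Col5a2, Col6a2, Col8a1 and Col11a1 passed in the same direction. For Col12a1 a second probe set passed (-1.8, adjusted p = 0.00195), and its others, at low signals, did not.

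It was larger in RRR cells than in wt cells for Col11a1 (1.73), Col8a1 (1.54), Col5a1 (1.01), Col3a1 (0.98), Col5a2 (0.96) and Col4a1 (0.79), with adjusted p from 0.000771 for Col8a1 to 0.0293 for Col5a1. A further probe set also passed for Col3a1, Col5a1, Col5a2, Col8a1 and Col11a1, and that of Col4a1 did not (0.69, adjusted p = 0.414). Both sets of genes use the same wt arrays, so a gene in both was not seen in independent samples.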

How the results depend on the processing

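Of 155 called differences of single collagen genes, 95 passed in the same direction under every alternative run and 60 did not pass under at least 1 of them. Median centring ended 38 calls, fits of the compared groups alone 24, the mean of all probe sets 16, the values as deposited 14, no trend 6 and leaving out the 3 arrays that stood apart 6. Pseudocounts of 1 and 64 ended 2 and 1. In 1 case the direction turned, for Col4a1 in wt cells at 24 h against 0 h, with -0.01 under median centring (adjusted p = 0.987) in place of 0.33. Of 268 counts under alternatives, 245 were within 1.5 times of the reported ones.

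With median centring the counts for RRR minus wt were 0, 1 and 2 at 6, 12 and 24 h. Beside the 0 by limma at 6 h, 6 collagen genes had an unadjusted p under 0.05. The counts under that scaling were 2 for wt at 6 h against 0 h, 7 for RRR at 24 h against 6 h and 1 for the difference of changes between RRR and wt. For RRR minus wt the values as deposited gave 1 at 6 h and 5 at 12 h. The compared groups alone gave 1 at 6 h and 4 at 24 h. At 12 h the filter on low values gave 5, the mean of all probe sets 1 and the absence of the 3 arrays 6. The mean of all probe sets gave 14 for RRR minus empty retrovirus at 24 h. The cause of these shifts was not tested.

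Leaving out 1 array in turn gave counts of 1 to 3, 2 to 6 and 7 to 10 for RRR minus wt at 6, 12 and 24 h, and 2 to 5 for wt at 6 h against 0 h. With the replicate number as a block, RRR minus wt at 12 h gave 5 genes in place of 3, and the block ended no call of a single collagen gene. Whether the replicate numbers pair some arrays was not settled. Of the 42 genes, 19 did not reach a signal of 100 in 3 arrays; with 3 arrays a group, precision is limited for all of them.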
